A study of Sus scrofa with 59 samples.

Results

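The genes described are chaperones and co-chaperones measured in pig skeletal muscle, chosen by name: every gene on the array whose symbol begins with DNAJ, HSPA, HSPD, HSPE, HSP90, CCT with a number, PPI with a letter from A to H, FKBP or TCP1. HSPA6, HSP70.2, DNAJA1, DNAJB1 and FKBP1A were left out by the same rule. It found 60 of the 6765 named genes, each represented by the probe set with the highest mean over all arrays. By textbook knowledge 27 of their products work mainly in the cytosol, 14 in the endoplasmic reticulum (ER), 7 in mitochondria and 10 in the nucleus or elsewhere. The remaining 2, TCP11 and TCP11L1, share only spelling with TCP1 and were kept apart.

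The series measured RNA of the longissimus dorsi, the long back muscle, in 59 pigs of an LD/LW x Duroc cross at 170 days of age. Each pig had 1 Affymetrix porcine array, all pigs formed 1 group reared together, and muscle was frozen at slaughter. The study set out to relate expression early after death to traits of body composition and meat. Trait values, sex and array batch were not used here, so the comparisons below run across pigs.

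Chaperones bind unfolded or partly folded proteins and help them fold, assemble, cross membranes or reach degradation. Hsp70 proteins (HSPA genes) hold short exposed stretches in a cycle driven by ATP, J-domain proteins (DNAJ genes) load clients and start that cycle, and nucleotide exchange factors end it. Hsp90 acts later on kinases, receptors and other near-native clients, while chaperonins enclose a protein in a barrel: TRiC, built from CCT subunits and TCP1, in the cytosol, and HSPD1 with its lid HSPE1 in mitochondria. Cyclophilins (PPI genes) and FKBPs turn peptide bonds at proline. The ER has its own set, led by HSPA5 (BiP) and HSP90B1 (GRP94), which the unfolded protein response controls, whereas heat shock factor controls many cytosolic members. In muscle these proteins fold actin, myosin and the mitochondrial enzymes.

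The arrays were alike in scale, with medians from 6.23 to 6.30 log2 and correlations between arrays from 0.969 to 0.995. All 8 measured markers of skeletal muscle fibres, among them CKM, TNNT3 and TTN, had means between 12.9 and 14.8. Of 12000 probe sets bright enough to test (mean of at least 6.27), 4928 stood for named genes. Of the 60 genes, 54 passed this filter; DNAJC6, DNAJC9, FKBP6, FKBP7, HSPA12A and TCP11 did not. FKBP7 lay just below it at 6.08 and DNAJC3 just above at 6.29. The array of pig 36 held the highest value for 16 of the 54 genes, pig 72 for 4, and pig 30 the lowest for 7. Results that rested on pig 36 or pig 72 are given with and without them. In bulk tissue, fewer cells of a type and less RNA per cell cannot be told apart.

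The typical chaperone had a wider spread between pigs than the typical gene. The median SD over the 59 pigs was 0.231 log2 for the 54 genes and 0.197 for all tested genes. An SD of at least 0.3 was found for 17 of the 54 (31.5%), against 971 of 4928 tested genes (19.7%). These 17 were 10 of 24 cytosolic, 6 of 13 ER and 1 of 7 mitochondrial genes, and none of 9 in the nucleus or elsewhere. Values of different genes are not set against each other, since each probe set has its own brightness per RNA molecule.

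The 5 cytosolic genes with the highest mean signals came first by the rule for naming genes, which says nothing of their abundance. HSPA8, the constitutive Hsp70, lay between 13.44 and 14.30 log2 with a median of 13.76. HSP90AA1 ran from 13.39 to 14.19 around a median of 13.82, and its sister HSP90AB1 from 12.15 to 13.31 around 12.71. Both HSPA8 and HSP90AA1 lie near the top of the array's range, where differences can be compressed, which was not tested. PPIA, cyclophilin A, ranged from 12.16 to 13.09 (median 12.49), and the chaperonin subunit CCT4 from 11.78 to 12.62 (median 12.14). From these brightest probe sets, none of the 5 spanned more than 2.24-fold between the lowest and the highest pig, the value of HSP90AB1. For HSP90AA1 a dimmer probe set, with a mean of 11.95, had an SD of 0.541, against 0.191 for the brightest.

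By the brightest probe set of each gene, other cytosolic genes varied far more. DNAJA4, a J-domain partner of Hsp70, ran from 9.29 in pig 30 to 12.08 in pig 36 (median 10.35), a 6.89-fold span. HSPA4, an exchange factor of the Hsp110 class, ran from 8.74 to 10.79 (median 9.62). The testis-enriched Hsp70 HSPA2 ran from 7.03 to 9.37 (median 8.38). The high ends belonged to different pigs: pig 36 for DNAJA4, pig 48 for HSPA4 and pig 72 for HSPA2. CCT8, another chaperonin subunit, spanned 10.67 to 12.30 (median 11.35), and FKBP5, the Hsp90 co-chaperone that restrains steroid receptors, 9.56 to 11.38 (median 10.50).

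The ER held the gene with the largest spread of the 54. HSPA13, a microsomal Hsp70 without a peptide-binding domain, ran from 6.94 to 9.75 with a median of 7.95 (SD 0.569), a 7.02-fold span. HSP90B1 ran from 9.27 to 11.52 with a median of 10.17. HSPA5 lay between 10.75 and 12.51 with a median of 11.15, and pig 36 stood above the next pig, at 11.98. The same pig was highest for FKBP11, a secretory prolyl isomerase, which ran from 6.27 to 8.45 (median 6.84, next pig 7.92). DNAJB9 (ERdj4) ran from 8.52 to 9.85 (median 9.23), FKBP2 from 8.66 to 9.51 (median 8.96) and DNAJC14 from 8.11 to 8.82 (median 8.37). DNAJB11 (ERdj3), a partner of HSPA5, had one of the smallest spreads, 7.57 to 8.19 (median 7.82, SD 0.130).

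Of the mitochondrial chaperones, PPIF had the widest spread (SD 0.476). HSPE1 ran from 12.89 to 13.74 (median 13.33), HSPD1 from 12.35 to 13.36 (median 12.76) and HSPA9, the matrix Hsp70 mortalin, from 12.11 to 13.15 (median 12.55). DNAJC19, a J-domain protein of the import motor, ran from 9.55 to 10.59 (median 10.19), and DNAJC11, a protein of the cristae complex, from 7.54 to 8.76 (median 8.04), a 2.33-fold span. PPIF, cyclophilin D of the permeability transition pore, ran from 8.82 in pig 36 to 11.07 in pig 72 (median 9.51), a 4.75-fold span. Pig 2, the next highest for PPIF, was at 10.54.

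Nuclear and other members were the steadiest. The splicing-associated DNAJC8 lay between 9.76 and 10.21 (median 9.94), with the smallest SD of the 54, 0.101. FKBP8, anchored in the outer mitochondrial membrane, ran from 7.40 to 7.87 (median 7.64, SD 0.113), and nuclear FKBP3 from 12.43 to 13.03 (median 12.80, SD 0.121). PPIG ran from 8.83 to 9.88 (median 9.34), DNAJC5, which guards synaptic vesicle proteins, from 7.41 to 8.26 (median 7.90), and PPIH of the spliceosome from 7.36 to 8.36 (median 7.89).

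**Figure D1:**
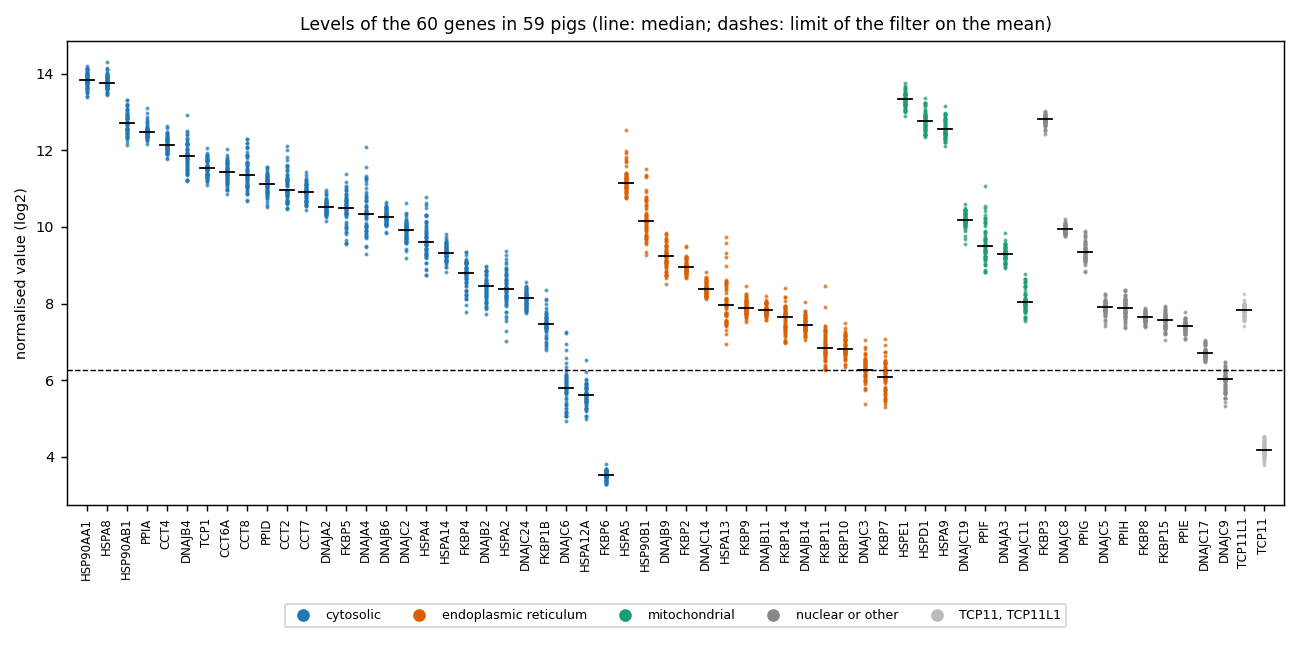
Normalised log2 value of each of the 60 genes in each of 59 pigs, 1 point per pig, with the median as a line and the filter limit of 6.27 dashed. HSPA13, DNAJA4, HSP90B1 and PPIF are spread widely, while DNAJC8, FKBP8 and FKBP3 are narrow.

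To ask what the chaperones moved with, each was fitted with limma on 5 scores built from genes outside the 60. A score is the mean of its genes' standardised values, scaled to an SD of 1, so a slope is a log2 difference per SD of the score. The scores covered inducible heat shock (9 genes, including HSPA6, HSP70.2, DNAJB1, BAG3 and HSPB1), oxidative phosphorylation (38), extracellular matrix (16), slow fibres (9), and macrophages and leukocytes (10). A gene was called where the Benjamini-Hochberg adjusted p over all tested probe sets was under 0.05. The mean level of the 9 heat shock genes ran from 10.76 to 13.52 log2 over the pigs.

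Most cytosolic and mitochondrial chaperones, and most ER ones, were higher in pigs with a higher inducible heat shock score. Of the 54, 34 were higher and 3 lower with the score, where 25% of 4919 tested genes were called higher and 22.7% lower. The cytosol had 19 of 24 higher and none lower (limma; 0 also at an unadjusted p under 0.05), mitochondria 6 higher and 1 lower of 7, and the ER 8 higher and 1 lower of 13. In the nucleus and elsewhere, 1 of 9 was higher and 1 lower. The median slope was 0.16 for cytosolic, 0.15 for mitochondrial, 0.08 for ER and -0.01 for nuclear and other genes, beside -0.0045 for all genes. Differences between the compartments were not tested.

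In the cytosol, the whole measured chaperonin was higher with the score: CCT2, CCT4, CCT6A, CCT7, CCT8 and TCP1. CCT8 had a slope of 0.36 ± 0.026 (SE, n = 59 pigs, limma adjusted p = 4.212e-17), and CCT2 one of 0.32 ± 0.026. From the brightest probe sets, DNAJA4 had 0.43 ± 0.044 and HSPA4 0.35 ± 0.039, and a second probe set for HSPA4, with a mean of 9.35, had 0.53 ± 0.037. HSPA8 moved less per SD, 0.16 ± 0.012, but tracked the score most closely of the 54, with r = 0.897. The Hsp90 co-chaperones split: FKBP4 (0.21 ± 0.036) and PPID (0.19 ± 0.020) were called, FKBP5 (0.08 ± 0.051, limma adjusted p = 0.192) was not. Also not called were DNAJB2, HSPA14, FKBP1B, which binds the ryanodine receptor, and DNAJC24, with slopes between -0.03 and 0.06.

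The ER genes covered the whole range of slopes. HSPA13 (0.44 ± 0.047, limma adjusted p = 3.656e-11) and HSP90B1 (0.40 ± 0.039, limma adjusted p = 7.138e-13) had the steepest slopes. HSPA5 followed at 0.21 ± 0.034, with DNAJC3 and DNAJB9 near 0.19 and 0.18, and with DNAJB14, FKBP2 and DNAJC14 between 0.07 and 0.08. DNAJB11 (0.04), FKBP11 (0.10), FKBP14 (-0.03) and FKBP10 (-0.05) were not called. FKBP9 was lower, -0.10 ± 0.021 (limma adjusted p = 0.0001091). Without pig 36, which had the highest score, HSPA13 kept a slope of 0.38 and HSPA5 one of 0.16 (limma adjusted p = 7.37e-05). In that fit 8 ER genes were called higher and 2 lower.

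In mitochondria, the chaperonin pair was higher, HSPD1 by 0.20 ± 0.019 and HSPE1 by 0.14 ± 0.016 per SD. HSPA9 had 0.18 ± 0.019, DNAJC11 0.17 ± 0.030, PPIF 0.15 ± 0.058 and DNAJA3 (Tid1) 0.07 ± 0.022. DNAJC19 was lower, -0.06 ± 0.025 (limma adjusted p = 0.03589), a call lost without pig 36. Outside these compartments, DNAJC17 was higher (0.05), a call lost without pig 36, and FKBP15, an endosomal protein, lower (-0.06). DNAJC5, DNAJC8, FKBP3, FKBP8, PPIE, PPIG and PPIH were not called, with slopes between -0.03 and 0.04.

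**Figure D2:**
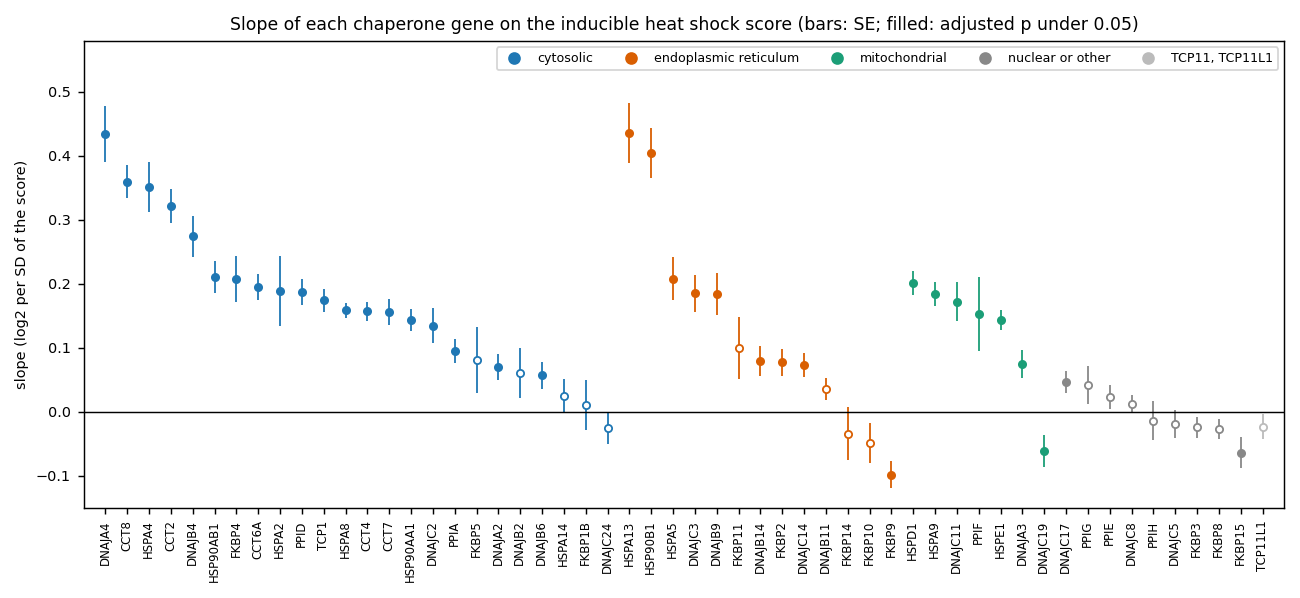
Slope of each tested gene on the inducible heat shock score in log2 per SD, with SE bars, filled where the limma adjusted p is under 0.05, grouped by compartment over 59 pigs. Slopes reach 0.43 in the cytosol and 0.44 in the ER, and the 9 nuclear or other genes lie close to 0.

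These slopes ran along the main axis of variation of the whole array. The first principal component of the other probe sets held 19.8% of their variance and correlated with the score at r = 0.852. With that component in the fit, 15 of the 54 were called higher and 0 lower (limma, with 2 lower at an unadjusted p under 0.05; 2.74% and 1.83% of all genes). They were 13 cytosolic genes, with 5 CCT subunits, DNAJB4, FKBP1B, FKBP4, HSP90AA1, HSP90AB1, HSPA4, HSPA8 and PPID, and in mitochondria HSPD1 and HSPE1. FKBP1B had not been called before. Of the 13 ER genes none was called (1 was higher and 1 lower at an unadjusted p under 0.05): HSP90B1 had 0.20 (limma adjusted p = 0.07345), HSPA13 0.06 (limma adjusted p = 0.7049) and HSPA5 0.03 (limma adjusted p = 0.8368). The difference between 3′ and 5′ control probe sets of GAPDH, a sign of RNA integrity, correlated with the score at r = -0.420, and that of actin at r = -0.159. Of adipocyte markers 3 of 5 (CFD, CIDEA and LIPE) were lower with the score. So was JCHAIN, the only plasma cell marker that passed the filter, and 1 of 8 muscle markers (DES) was higher. The part of RNA integrity and of these cells in the result was not tested.

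Partners of the chaperones outside the 60 were fitted in the same way, with the same shares of all genes, 25% higher and 22.7% lower, as background. Of 18 tested genes of ER folding and its stress response, 13 were higher with the heat shock score and 1 lower. MANF, a secreted stress protein, had a slope of 0.22, the collagen chaperone SERPINH1 0.21, the stress factor DDIT3 0.20 and the exchange factor HYOU1 0.19, while ERP29 had -0.07. Of 23 cytosolic co-chaperones and regulators, 8 were higher and 3 lower. SUGT1 (0.30), the heat shock factor HSF2 (0.27), the Hsp70-Hsp90 adaptor STIP1 (0.25) and p23, PTGES3 (0.17), led, and all 3 lower genes were prefoldin subunits, PFDN1 (-0.10), VBP1 (-0.08) and PFDN4 (-0.06). Of 8 mitochondrial folding genes, 2 were higher, a share near that of all genes, and 1 was lower. The higher ones were GRPEL1 (0.11), the exchange factor for HSPA9, and TRAP1 (0.09), the mitochondrial Hsp90, and the lower one was ATF5 (-0.04).

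Relatives in different compartments were compared directly, as the log2 difference between 2 genes along the heat shock score in 7 pairs. From the brightest probe set of each gene, the ER Hsp90 had a steeper slope than both cytosolic ones. The slope of HSP90AA1 minus that of HSP90B1 was -0.26 ± 0.040 (95% interval -0.34 to -0.18, two-sided permutation test, adjusted p over 7 pairs = 7e-05, rho adjusted p = 7e-05). That of HSP90AB1 minus HSP90B1 was -0.19 ± 0.043 (-0.28 to -0.11, permutation adjusted p = 0.00014). The cytosolic pair differed as well, HSP90AA1 less than HSP90AB1 by -0.07 ± 0.018 (-0.10 to -0.03, permutation adjusted p = 0.001213). Both differences that involve HSP90AA1 depended on its probe set, and not only in size. Its brightest probe set lies near the top of the range, and whether differences are compressed there was not tested. Another, with a mean of 11.95, had a slope of 0.41 ± 0.046 where the brightest had 0.14, beside 0.40 for HSP90B1 and 0.21 for HSP90AB1. From that probe set HSP90AA1 was about as steep as HSP90B1 and steeper than HSP90AB1, and these differences were not tested. Averaging all probe sets gave a permutation adjusted p of 2.333e-05 against HSP90B1 and of 0.09234 against HSP90AB1. The average for HSP90AA1 includes probe sets with slopes of 0.06 and 0.01.

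The Hsp70 trio did not pass the test. HSPA8 minus HSPA5 had a slope of -0.05 (95% interval -0.12 to 0.02), HSPA8 minus HSPA9 one of -0.03 (-0.07 to 0.01) and HSPA5 minus HSPA9 one of 0.02 (-0.05 to 0.09). Without pig 36 the correlation of the last difference with the score turned from 0.0911 to -0.0977. Averaging all probe sets made the former 2 differences pass (permutation adjusted p = 2.333e-05 for each), where the average for HSPA8 includes 3 probe sets below the filter. Of the cyclophilins, PPIA minus PPIF had a slope of -0.06 (-0.19 to 0.07), which passed without the 2 pigs with the most extreme scores, 36 and 30 (r = -0.311, permutation adjusted p = 0.03295).

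With the oxidative phosphorylation score, 6 of the 54 genes were higher and 2 lower, where 9.49% and 3.21% of all genes were called, shares near those of the 54; 4 of the 6 were among the 7 mitochondrial genes. PPIF led with a slope of 0.34 ± 0.044 (limma adjusted p = 3.572e-08), then DNAJC11 with 0.14 ± 0.032, DNAJC19 with 0.08 ± 0.024 and DNAJA3 with 0.08 ± 0.022. HSPA9 (0.06, limma adjusted p = 0.2155), HSPD1 (0.05, limma adjusted p = 0.3913) and HSPE1 (0.02, limma adjusted p = 0.7592) were not called. The other calls were HSPA14 (0.08), which works at the ribosome, and DNAJC8 (0.04) higher, and DNAJB2 (-0.12) and TCP11L1 (-0.06) lower. A dimmer probe set for HSP90AA1, with a mean of 9.66, was also higher (0.17 ± 0.029, limma adjusted p = 7.571e-06). The brightest and the other probe sets for HSP90AA1 were not called with this score.

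This score correlated with the slow fibre score at r = 0.533, and 7 of 9 slow fibre genes were higher with it. With all 5 scores in 1 fit, PPIF, DNAJC11 and HSPA9 were the mitochondrial genes called, and DNAJA3 and DNAJC19 were not. Pig 72 had the highest oxidative phosphorylation score, 3.44 SD. Without it 4 genes were higher and 1 lower: PPIF kept a slope of 0.28 (limma adjusted p = 5.805e-06) and DNAJC11 one of 0.12 (limma adjusted p = 0.01778), while DNAJA3, DNAJC19, DNAJC8 and DNAJB2 were no longer called. DNAJA2 (0.07) was called higher then. Without pig 36, which had the lowest of these scores, HSPA9 was called as well (0.08, limma adjusted p = 0.04091) and DNAJC8 was not. A second, dimmer probe set for DNAJC11 did not follow the brighter one (r = -0.206) and had a slope of -0.02 on this score. Of the 8 mitochondrial folding partners, 3 were higher with the score, GRPEL1 (0.09), the import protein TIMM44 (0.09) and the prohibitin PHB2 (0.08). Of the other partners, ST13 and ATF4 (each -0.07) were lower and DDIT3 (0.16) higher.

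The extracellular matrix score, built from collagens, proteoglycans and other matrix proteins, had no larger share of the 54 called higher than of all genes. Of the 54 genes 4 were higher and 3 lower (9.69% and 4.09% of all genes), and the 4 were among the 5 tested FKBPs of the ER. The fifth, FKBP2, was not called (-0.01, limma adjusted p = 0.7569). FKBP10, a prolyl isomerase for procollagen, had a slope of 0.21 ± 0.017 (limma adjusted p = 6.019e-15), and its values ran from 6.35 to 7.49 (median 6.82). FKBP11 had 0.22 ± 0.042, FKBP14, whose values ran from 6.97 to 8.40 (median 7.66), 0.20 ± 0.033, and FKBP9, from 7.52 to 8.45 (median 7.87), 0.13 ± 0.018. The general ER chaperones HSPA5 (0.02, limma adjusted p = 0.8057) and HSP90B1 (-0.06, limma adjusted p = 0.5579) were not called. DNAJA2 (-0.07), DNAJA3 (-0.07) and DNAJC11 (-0.10, limma adjusted p = 0.04428) were lower. The call of DNAJC11 was lost without pig 72, those of DNAJC11 and DNAJA3 with all 5 scores in 1 fit, and all 3 with the first principal component in the fit. The dimmer probe set for DNAJC11 was not called (-0.02, limma adjusted p = 0.6547). A dimmer probe set was called lower for DNAJB9 (mean 9.14, slope -0.12) and for DNAJB6 (mean 9.03, slope -0.08). Their brightest probe sets were not called. Of 18 ER partners, PDIA6 (0.13), SERPINH1 (0.13), PDIA3 (0.10) and ERP29 (0.07) were higher, and DDIT3 (-0.15) and ERP44 (-0.05) lower. Of adipocyte markers 3 of 5 (FABP4, CFD and CIDEA) were also higher with this score, with a mean level of the list from 7.20 to 8.22 log2 over the pigs, and their part in the result was not tested. Without pig 44, which had the highest matrix score, 5 of the 54 were higher and 5 lower.

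**Figure D3:**
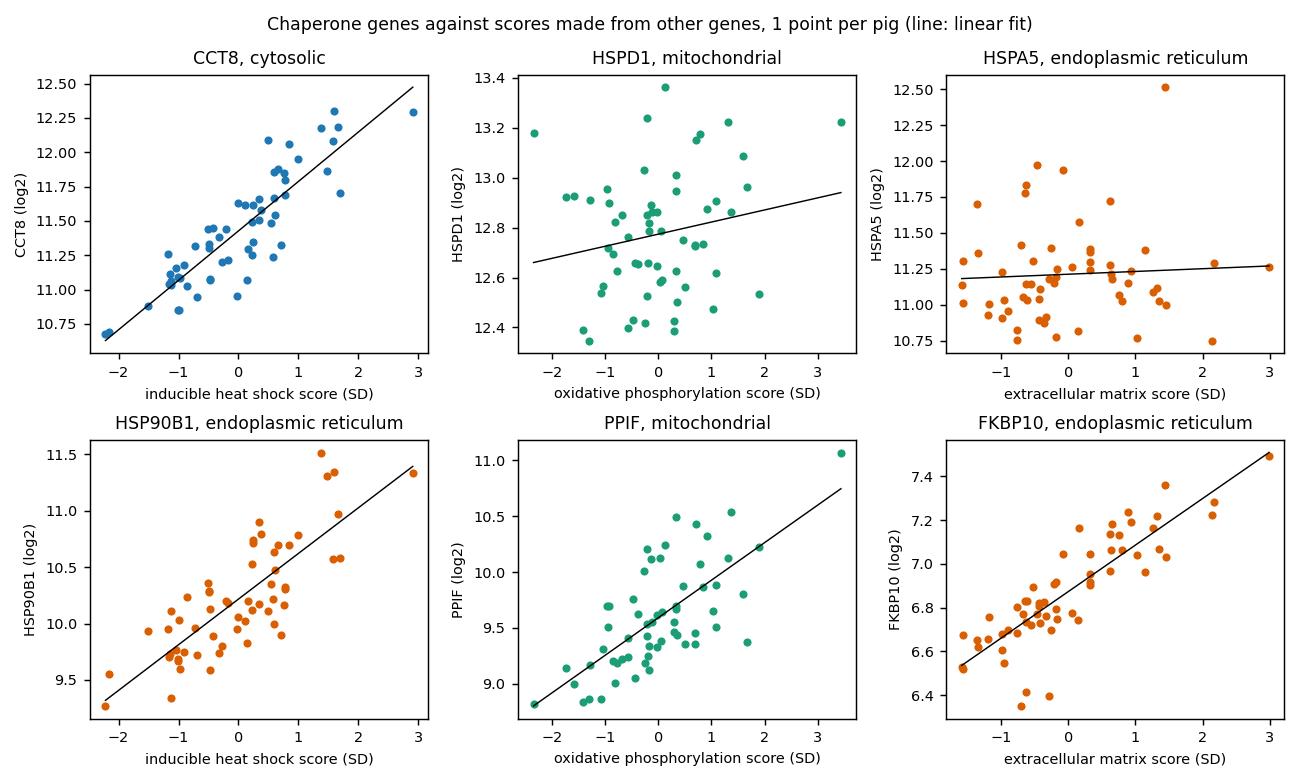
Log2 value of 6 chaperones against a score in SD, 1 point per pig with a linear fit: CCT8 and HSP90B1 on inducible heat shock, HSPD1 and PPIF on oxidative phosphorylation, HSPA5 and FKBP10 on extracellular matrix. PPIF and FKBP10 follow their score (slopes 0.34 and 0.21), whereas HSPD1 and HSPA5 (0.05 and 0.02) were not called.

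With the macrophage and leukocyte score, 5 of the 54 genes were higher (9.05% of all genes, a share near that of the 54) and 0 lower (2.07%; limma, with 2 at an unadjusted p under 0.05). They were 4 of the 13 ER genes and 1 of the 24 cytosolic genes. FKBP11 had the steepest slope, 0.28 ± 0.036 (limma adjusted p = 2.58e-08), then HSPA5 with 0.16 ± 0.038, FKBP14 with 0.16 ± 0.036, FKBP10 with 0.10 ± 0.030 and PPIA with 0.07 ± 0.021. Without pig 36 FKBP11 (0.23), FKBP14 (0.14) and HSPA5 (0.12) were still called, and FKBP10 and PPIA were not. Of the 18 ER partners 11 were higher and 0 lower, with PDIA3 (0.18), SERPINH1 (0.16), PDIA6 (0.16) and CRELD2 (0.15) leading. This score and the matrix score correlated at r = 0.415, and 8 of its 10 genes were higher with the matrix score. With all 5 scores in 1 fit, FKBP9, FKBP10, FKBP11 and FKBP14 were still called with the matrix (5.8% of all genes higher), and FKBP11, HSPA5 and DNAJB14 with macrophages (7.22%). The mean level of the 10 macrophage genes ran from 6.34 to 8.40 log2 over the pigs, and JCHAIN and the adipocyte marker FABP4 (0.19, 1 of 5) were also higher with this score.

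Few chaperones were called with the slow fibre score. Of the 54 genes 0 were higher (limma, 2 at an unadjusted p under 0.05; 3.48% of all genes called) and 1 was lower (2.2%). That gene was DNAJC5, with a slope of -0.07 ± 0.020 (limma adjusted p = 0.03561), and leaving out any of 8 pigs, pig 72 among them, ended the call. None of the cytosolic, ER or mitochondrial folding partners was called with this score by limma, and at an unadjusted p under 0.05 it was 4 of 23, 3 of 18 and 0 of 8.

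**Figure D4:**
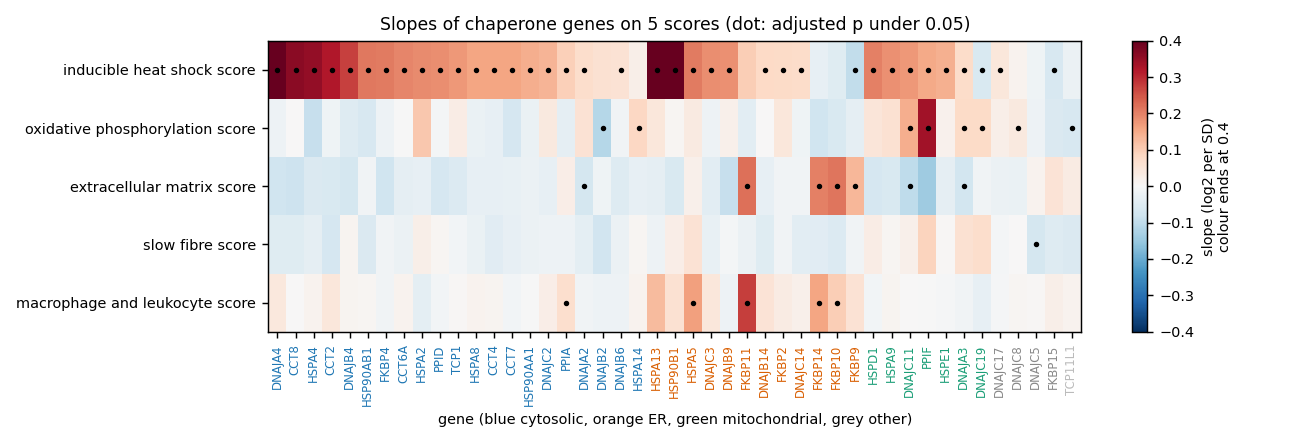
Slopes of the tested genes on each of the 5 scores in log2 per SD as colours, with a dot where the limma adjusted p is under 0.05. Among the genes shown, most were called in the heat shock row. Calls are sparse in the other rows, with 6 higher on oxidative phosphorylation, 4 on matrix and 5 on macrophages.

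Over the 59 pigs the chaperones varied together in blocks, given here as Pearson correlations with no test. The 6 chaperonin subunits formed the tightest, with a median r of 0.834 over 15 pairs and a lowest of 0.564. CCT2 and CCT8 had the highest r of any pair, 0.917. The median r was 0.476 among mitochondrial, 0.359 among cytosolic and 0.354 among ER genes, against 0.006 over all pairs of tested genes. Across compartments it was 0.368 for cytosol and mitochondria, 0.247 for cytosol and ER and 0.248 for ER and mitochondria. Nuclear and other genes had no shared pattern (median r = -0.016). After the heat shock score was fitted out, the median was 0.486 for chaperonin subunits, 0.256 for mitochondrial, 0.242 for ER and 0.101 for cytosolic genes. Across compartments it was then 0.1065 for cytosol and mitochondria, 0.061 for cytosol and ER and 0.008 for ER and mitochondria. The cytosolic genes outside the chaperonin had a median r of 0.255, and of 0.057 after that fit.

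Several nearest partners lay in the same compartment or complex. PPIF was nearest to DNAJC11 (r = 0.830) and then DNAJA3 (r = 0.689). FKBP10 was nearest to FKBP14 (r = 0.689), and HSPA14 to DNAJC2 (r = 0.509), the gene of its J-domain partner at the ribosome. DNAJB11 was nearest to HSPA5 (r = 0.511). Other nearest genes lay in another compartment: HSPA9 was nearest to CCT8 (r = 0.879) and HSPA13 to CCT2 (r = 0.853). DNAJC19 and FKBP9 ran against most of the set, and each was the farthest gene for many others, as DNAJC19 was for HSP90AB1 (r = -0.519) and FKBP9 for PPID (r = -0.558).

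**Figure D5:**
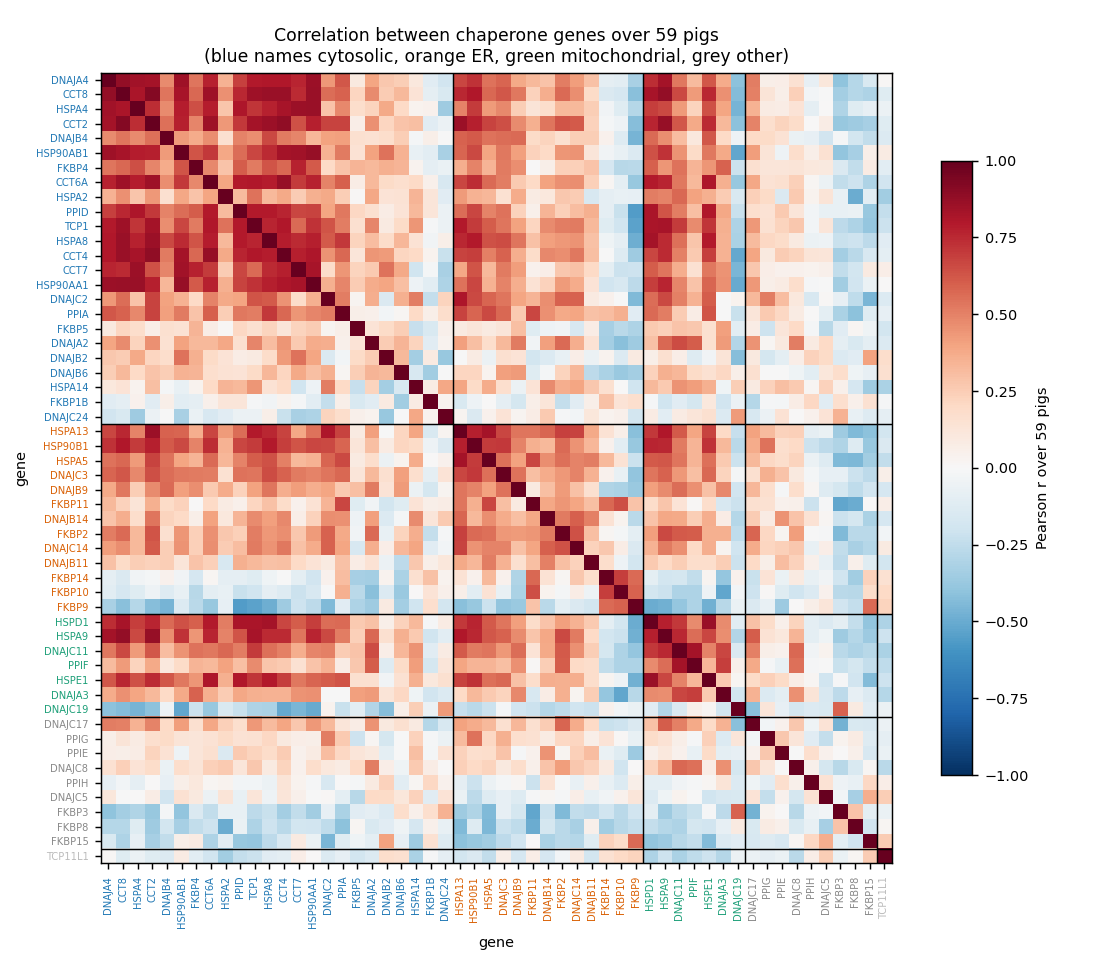
Pearson r between the tested genes over 59 pigs, with genes grouped by compartment. A block of high values joins chaperonin subunits (median r 0.834) with HSPA8, HSP90 and mitochondrial HSPD1, HSPE1 and HSPA9, while FKBP9 and DNAJC19 show negative values.

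Among all tested probe sets, the neighbours of 5 reference genes differed. Only named genes are listed. For HSP90AA1, TCP1 and FKBP5, a probe set without a single gene symbol was closer than the nearest named gene. HSPD1 had HSPE1 as its nearest gene (r = 0.862), and they are also the only adjacent pair of the 60 genes on the Sscrofa11.1 assembly, where 59 of the 60 could be matched. Its next were HSPA8 (r = 0.835), SUGT1, DNAJA1, HSPA9, CCT8, PPID and TCP1, all chaperones or co-chaperones. HSPA9 had this place from a dimmer probe set (r = 0.824), and its brightest had r = 0.779. HSP90AA1 was nearest to the small heat shock gene CRYAB (r = 0.884) and to HSP90AB1 (r = 0.869), followed by CCT8, HSPA4, HSPB1, HSPB8, DNAJA4 and CCT7.

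HSPA5 was nearest to MANF (r = 0.888), followed by PTPN1, HSPA13 (r = 0.832), BAZ1A, SRSF7, PRELID1, FAM49B and OSTC. TCP1 was nearest to the translation factor EIF4E (r = 0.878), then to GNL3, BAG3, CCDC86, GPATCH4, CCT8, KMT2E and PNO1. FKBP5 had no close named neighbour: the highest were ABHD4 (r = 0.592), FOXO1 (r = 0.575) and VCL (r = 0.567), then CSE1L, SMPDL3A, VIPAS39, FDX1 and FNTB. Its closest of the 60 was DNAJA3 (r = 0.414). FKBP5 and FOXO1 are both known as targets of the glucocorticoid receptor.

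Some of these values rest on 1 of several discordant probe sets. Of the 60 genes, 36 had 1 probe set and 24 had several, 98 in all. Correlations of another probe set with the brightest under 0.3 were found for CCT4, DNAJA4, DNAJB6, DNAJB14, DNAJC3, DNAJC8, DNAJC11, FKBP15, HSP90AA1, HSPA8, PPID, PPIG and TCP11L1. For most the second probe set was below the filter, as for CCT4 (mean 3.68) and HSPA8 (means of 4.70 to 5.79). Where both were bright, the slope on the heat shock score could differ: DNAJB6 had 0.06 from its brightest and 0.19 from another with a mean of 8.13, and DNAJC8 0.01 and 0.09. In other genes a second bright probe set was not called: DNAJC11 had 0.17 from its brightest and -0.03 from the other, DNAJB14 0.08 and 0.02, and HSP90AA1 0.14 and, from a probe set with a mean of 11.12, 0.01. HSP90B1 (r = 0.881), HSPA9 (r = 0.917), DNAJB9 (r = 0.919) and FKBP14 (r = 0.893) each had a second probe set close to the first. Near-identical relatives can share signal on arrays, which was not tested.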

How the data were processed

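Total RNA of 59 muscles was labelled and hybridised to Affymetrix porcine arrays, per the labels' protocols. The deposited values were processed with GCRMA, per the submitters' processing notes, and were read as log2 from their range (2.39 to 15.04); version and log base are not given in the sources used here. No trait, sex or batch was used.

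Gene symbols came from a platform annotation: 10099 of 24123 probe sets had 1 symbol, 198 several and 13826 none. The filter kept probe sets with a mean of at least 6.27. Members, compartments and gene lists were chosen with earlier results of these data known. Slopes were fitted with limma 3.58.1 (lmFit, eBayes, R 4.3.3) over all tested probe sets except those of the score's own genes. Paralogue differences used 100000 permutations, for which 1e-05 is the smallest p, in Python 3.11.15 with numpy 2.4.6, pandas 2.3.3 and scipy 1.17.1; figures used matplotlib 3.10.9. The scripts were tested on simulated data. P-values measure the spread between pigs, and precision depends on having 59 arrays.

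Named genes were the 5 highest means per compartment, the 8 largest and 4 smallest SDs, the 6 steepest called slopes per direction and score, up to 4 partners per list and direction, discordant probe sets, and fixed paralogues and reference genes. The endothelial markers gave 1 of 8 lower with the heat shock score, and the 1 blood marker that passed the filter was not called. Alternatives changed the filter, probe set choice, centring, score and covariates.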

Additional observations from a re-analysis of the deposited data

How the results depend on the processing

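Members were recounted under each alternative. The 34 higher with heat shock became 15 with the first principal component as covariate, and ranged from 32 to 35 when 1 pig was left out (32 without pig 5); the 3 lower became 1 among the brightest probe sets, 0 with that covariate, and 2 to 3 without 1 pig. With oxidative phosphorylation, 3 were higher without the 2 extreme pigs and 4 to 7 without 1 pig; 1 was lower with no filter, among the brightest probe sets, on averaged probe sets, with 5 scores in 1 fit and without pig 72, 8 with the covariate, and 1 to 3 without 1 pig. With matrix, 0 were higher among the brightest probe sets, which leaves those FKBPs out, and 7 with the covariate; 5 were lower without the 2 extreme pigs, 1 with 5 scores in 1 fit, and 2 to 5 without 1 pig (5 without pig 44). With slow fibres, 0 were lower with no filter, among the brightest probe sets, with a principal component as score, on ranks, without the 2 extreme pigs and without pig 72, 2 on re-centred arrays, and 3 with the covariate or with 5 scores; 1 was higher with the covariate, and leaving out 1 pig gave 0 to 1 higher and 0 to 2 lower. With macrophages, 2 were higher among the brightest probe sets, 3 with 5 scores or without pig 36, and 3 to 5 without 1 pig, and 0 to 1 were lower. The cause was not tested in the other cases.

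The correlation of the difference with the heat shock score, averaging all probe sets, was -0.596 for HSPA8 and HSPA5, -0.655 for HSPA8 and HSPA9 and -0.241 for HSP90AA1 and HSP90AB1. Without the 2 extreme pigs it was -0.311 for PPIA and PPIF and -0.0462 for HSPA5 and HSPA9, whose main value was 0.0911 and which ranged from -0.0977 to 0.144 without 1 pig. Without the filter, the median r of cytosolic genes was 0.249. Of 58 called slopes, 23 kept their call in every alternative run. With the covariate 5 heat shock slopes changed sign: DNAJC17 (-0.066), DNAJC2 (-0.0343), FKBP15 (0.0427), FKBP2 (-0.0864) and PPIF (-0.168). Fits with 5 scores and without pigs 36 or 72 were added after the data were seen. Values near background or near the top of the range can be compressed, which was not tested.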
